A study of Mus musculus with 18 samples.

Results

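The genes described here build, fill or signal from the primary cilium, the single antenna-like organelle of most resting vertebrate cells. They are 38 genes listed by name for their known roles, and the rule for the list uses no measured value: 12 of intraflagellar transport (IFT), 7 of the BBSome and its assembly, 8 of the transition zone and cilium base, 3 linked to cystic kidney, 4 that carry cargo to or in the cilium, the transcription factor Rfx3, and 3 of Hedgehog signalling. A probe was matched to 37 of them, all among the 17928 genes tested. Mks1, a transition zone protein, had no matched probe, so it enters only the promoter search.

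Gene expression was measured on single-colour Agilent mouse arrays in thyroids of C57BL/6 mice aged 1 month, weaned at 3 weeks. The normal-diet (NIH31) groups were 5 wild-type (WT) mice and 5 Glis3KO2 mice (KO2 here), in which the zinc finger gene Glis3 is targeted. The low-iodine groups were 4 WT and 4 KO2 mice kept on a Harlan diet for 6 days. All arrays read whole gland RNA, amplified from 50 ng of total RNA with a NuGEN Ovation Pico kit. The sources used here state no sex, do not say which part of Glis3 was removed, and do not say whether RNA of several animals was pooled.

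A primary cilium grows from the mother centriole. IFT trains carry its parts: IFT-B with kinesin-2 moves cargo to the tip, and IFT-A with dynein-2 brings it back and helps membrane proteins to enter. The BBSome coats and exports membrane proteins, the transition zone gates the base, and Patched, Smoothened and Sufu pass the Hedgehog signal through the organelle. Thyroid follicular cells carry a primary cilium that faces the follicle lumen. Glis3 protein has been found in the cilium, and its loss is known to cause hypothyroidism and cystic kidneys.

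Rfx3 and related factors bind the X-box, the classic promoter element of cilium genes, so the promoters of the genes were searched for it. RefSeq promoter windows (GRCm38.p6) run from 250 bases before to 50 bases after the start, 300 bases in all, and 34 of the 38 genes have one. The X-box was spelled as the arms GTNNCC and GGNAAC with 2 bases between them, and read on both strands. This spelling was kept after several were tried, so its counts are a description. It stood in 7 of 34 genes (20.6%), against 1.49% of all 27025 genes with a window and 1.29% of all 32851 promoter windows. The 7 were Bbs1, Bbs4, Bbs7, Ift57, Mks1, Nphp4 and Tmem216. Of the 6 genes that later passed the test between genotypes, Bbs4 is the only one whose window holds these letters. The shorter arm GTTGCC, which lies within some of these X-boxes, stood in 12 of 34 genes (35.3%), in 14.1% of all genes and in 12.5% of all windows, and in Ift27 and Ift140 of the 6. The stretches below are 30 bases each, 5′ to 3′ on the gene's strand, with the X-box (first 4 lines) or the arm (last 2 lines) in capitals. The match is on the opposite strand in Ift57 and Ift140, and the lines show how the letters between the fixed bases vary.
Bbs4, chr9:59353464-59353493, minus strand, X-box from base +24: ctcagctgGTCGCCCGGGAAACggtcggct
Bbs7, chr3:36613489-36613518, minus strand, X-box from base −121: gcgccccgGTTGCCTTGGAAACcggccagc
Ift57, chr16:49699199-49699228, plus strand, X-box from base −87: cgggtctgGTTGCCGTGGTGACcggctgcc
Nphp4, chr4:152477903-152477932, plus strand, X-box from base −231: cggtgcccGTCTCCTAGGTAACgcgccagc
Ift27, chr15:78174073-78174102, minus strand, arm from base −9: gggttgatgatgGTTGCCaggagcctgttt
Ift140, chr17:25015965-25015994, plus strand, arm from base −109: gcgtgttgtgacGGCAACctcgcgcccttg

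Some facts of the arrays bear on every value. The share of spots well above background ranged from 60.1% to 90.6% of an array. WT low-iodine replicate 2, with the most, also had the highest median signal (191.5). KO2 normal-diet replicate 4, with the least, had the lowest median signal (45.0). Slides 1 to 3 carry the normal diet and slides 4 and 5, read on another scanner, carry low iodine, so effects of diet and of array set cannot be told apart. WT and KO2 were balanced on each slide. Each of the 7 thyroid follicular cell markers was above background on some array of every group. The Glis3 probe, which may lie outside the deleted part, read −6.08 to −4.79 in WT and −5.46 to −4.16 in KO2 on the normal diet, and −1.60 to −0.74 in WT and −4.06 to −1.49 in KO2 on low iodine. That is a difference of −1.36 ± 0.47 (SE, limma adjusted p = 0.0619; blocking on slide gave 0.0259). Levels here and below are log2 intensities minus the array's 75th percentile. In RNA of a whole gland, fewer cells of a type and less RNA per cell cannot be told apart.

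On the normal diet, none of the 37 cilium genes passed the test between genotypes. On low iodine 6 did, all higher in KO2: the IFT genes Ift27 and Ift140, the BBSome genes Bbs2, Bbs4 and Bbs9, and Ofd1 of the cilium base. Their differences were modest, 1.39-fold for Ift27 to 1.91-fold for Bbs2, and no cilium gene changed by 2-fold on either diet. The threshold is an adjusted p of 0.05 over all genes (limma, Benjamini-Hochberg). It was passed by 1.39% of all genes on the normal diet (0.513% higher and 0.876% lower) and by 15.0% on low iodine (7.81% higher and 7.18% lower in KO2). The 6 of 37 are 16.2% of the cilium genes, close to the share of all genes called in either direction.

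Without adjustment, 3 cilium genes (8.11%) had p under 0.05 on the normal diet and 11 (29.7%) on low iodine, against 13.2% and 28.2% of all genes. The smallest adjusted p on the normal diet was 0.147, for Smo. The median KO2 minus WT difference over the cilium genes was 0.0015 on the normal diet (0.05 over all genes) and 0.12 on low iodine (−0.02 over all genes). SEs of the cilium genes ran from 0.13 to 0.54 on the normal diet and from 0.15 to 0.60 on low iodine. Arrays of WT and KO2 did not overlap for 0 of 37 cilium genes on the normal diet (3.52% of all genes). On low iodine they did not overlap for 6 (19.7% of all genes). These were Ift140, Bbs2, Bbs4, Bbs9 and Ofd1, higher in KO2 (10.6% of all genes were), and Smo, lower (9.10%).

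**Figure D1:**
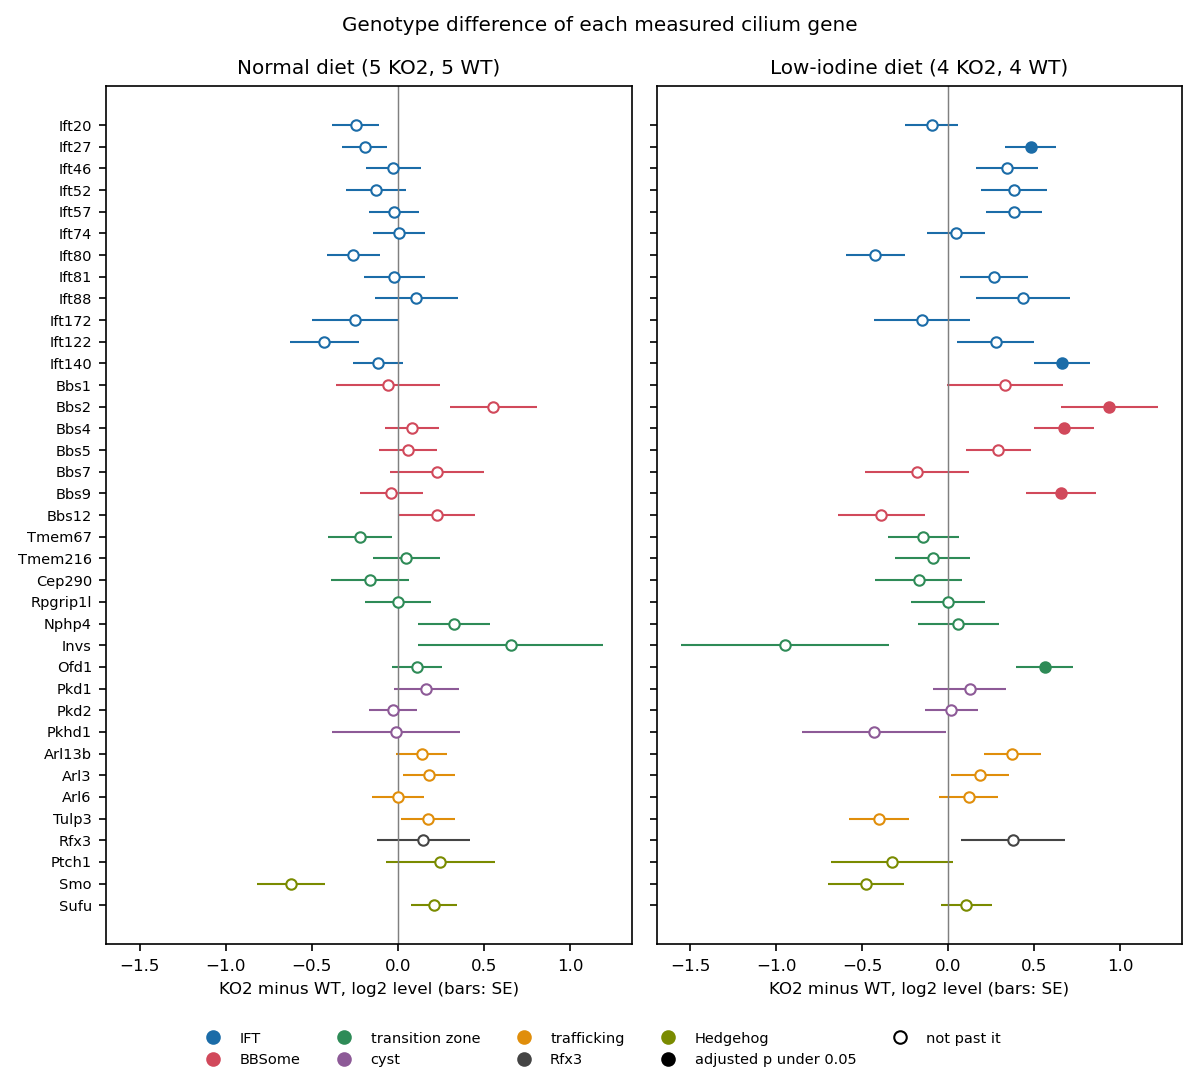
KO2 minus WT difference in log2 level of each of the 37 measured cilium genes on the normal diet (left, 5 arrays a group) and on low iodine (right, 4 arrays a group); points are fitted differences, bars SEs, colours roles, and filled points passed an adjusted p of 0.05. No point is filled on the left, and the 6 filled points on the right lie between 0.48 and 0.94; they stayed positive under every scaling tried, while without scaling the median of the cilium genes on low iodine was −0.14.

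Of the 12 IFT genes, 2 were higher in KO2 on low iodine and 0 lower, with a median difference of 0.31. Over all genes 7.81% were higher and 7.18% lower, the shares that stand beside the counts of each role group below. Ift140, a core subunit of IFT-A, read 1.66, 1.42, 1.31 and 1.36 in WT on low iodine (replicates 1 to 4, in this order here and below) and 2.40, 2.11, 1.90 and 1.99 in KO2. Every KO2 array lay above every WT array. The difference was 0.66 ± 0.16 (SE, limma adjusted p = 0.0122), 1.58-fold, and it was 0.66 on slide 4 and 0.66 on slide 5. Ift140 on the normal diet was 0.64, 0.73, 0.69, 0.56 and 0.57 in WT (all 5 in order) and 0.77, 0.04, 0.67, 0.72 and 0.42 for KO2. The groups overlapped there, with KO2 replicate 2 the lowest array, and the difference was −0.12 ± 0.15 (adjusted p = 0.821). A second Ift140 probe read 0.72 (adjusted p = 0.294) between genotypes on low iodine, and the dimmest of its 3 probes, above background on 13 of 18 arrays, read −0.54 (adjusted p = 0.564). The mean of the 3 probes gave 0.28 (adjusted p = 0.53), which is not past the threshold.

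Ift27, a small GTPase of IFT-B that helps the BBSome to leave the cilium, read 0.10, 0.0048, 0.34 and −0.09 in WT and 0.70, 0.30, 0.52 and 0.75 in KO2 on low iodine. KO2 replicate 2 lay below WT replicate 3, so the groups overlapped. The difference was 0.48 ± 0.15 (SE, adjusted p = 0.0377), with 0.67 on slide 4 and 0.29 on slide 5. Normal-diet levels were 3.88, 4.14, 4.19, 4.37 and 4.12 in WT and 4.10, 3.96, 3.79, 4.08 and 3.81 in KO2. That difference was −0.19 ± 0.13 (adjusted p = 0.596).

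The other 10 IFT genes did not pass the test on either diet. On low iodine their differences ran from −0.42 ± 0.17 for Ift80 (adjusted p = 0.109) to 0.43 ± 0.27 for Ift88, an IFT-B core subunit (adjusted p = 0.337). Of all 12, 9 had a positive difference on low iodine and 2 on the normal diet, where the median was −0.12. Ift122, the other IFT-A subunit among these 12, read −0.43 ± 0.20 on the normal diet (adjusted p = 0.373) and 0.27 ± 0.22 on low iodine (adjusted p = 0.491).

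Of the 7 BBSome genes, 3 were higher in KO2 on low iodine and 0 lower, with a median of 0.33. Bbs2, a propeller subunit of the BBSome, had the largest difference among the cilium genes called. It read −0.91, −0.75, −0.45 and −0.36 in WT and −0.10, 0.67, 0.39 and 0.31 in KO2 on low iodine. All 4 KO2 arrays lay above the WT arrays, and the difference was 0.94 ± 0.28 (SE, adjusted p = 0.0349), with 0.94 on slide 4 and 0.93 on slide 5. Bbs2 on the normal diet was −0.73, −1.73, −1.05, −1.90 and −0.79 in WT and −0.45, −0.92, −0.38, −1.31 and −0.35 in KO2. KO2 was higher on average there too, by 0.55 ± 0.25, but the groups overlapped and the adjusted p was 0.362.

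Bbs4, a subunit that also links the BBSome to centriolar satellites, read 0.75, 0.87, 0.49 and 0.21 in WT and 1.51, 1.08, 1.16 and 1.26 in KO2 on low iodine. The groups did not overlap, and the difference was 0.67 ± 0.18 (SE, adjusted p = 0.0167), with 0.58 on slide 4 and 0.77 on slide 5. A second, dimmer probe read 0.23 (adjusted p = 0.73), and the mean of both gave 0.45 (adjusted p = 0.223). Its normal-diet levels were −0.0084, 0.64, 0.48, 0.62 and 0.28 in WT and 0.59, 0.26, 0.47, 0.61 and 0.51 in KO2, a difference of 0.08 ± 0.16 (adjusted p = 0.894).

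Bbs9, a central subunit of the complex, read 2.18, 1.82, 2.46 and 2.16 in WT and 2.73, 2.69, 3.00 and 2.82 in KO2 on low iodine. The lowest KO2 array was above the highest WT array, and the difference was 0.65 ± 0.20 (SE, adjusted p = 0.0402), with 0.78 on slide 4 and 0.53 on slide 5. On the normal diet it was 0.59, 1.00, 0.94, 1.32 and 0.81 in WT and 1.37, 0.47, 0.72, 1.18 and 0.74 in KO2, with a difference of −0.04 ± 0.18 (adjusted p = 0.963). The other 4 BBSome genes did not pass the test on low iodine. Their differences ran from −0.39 ± 0.25 for Bbs12, which helps to assemble the complex, to 0.33 ± 0.34 for Bbs1.

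**Figure D2:**
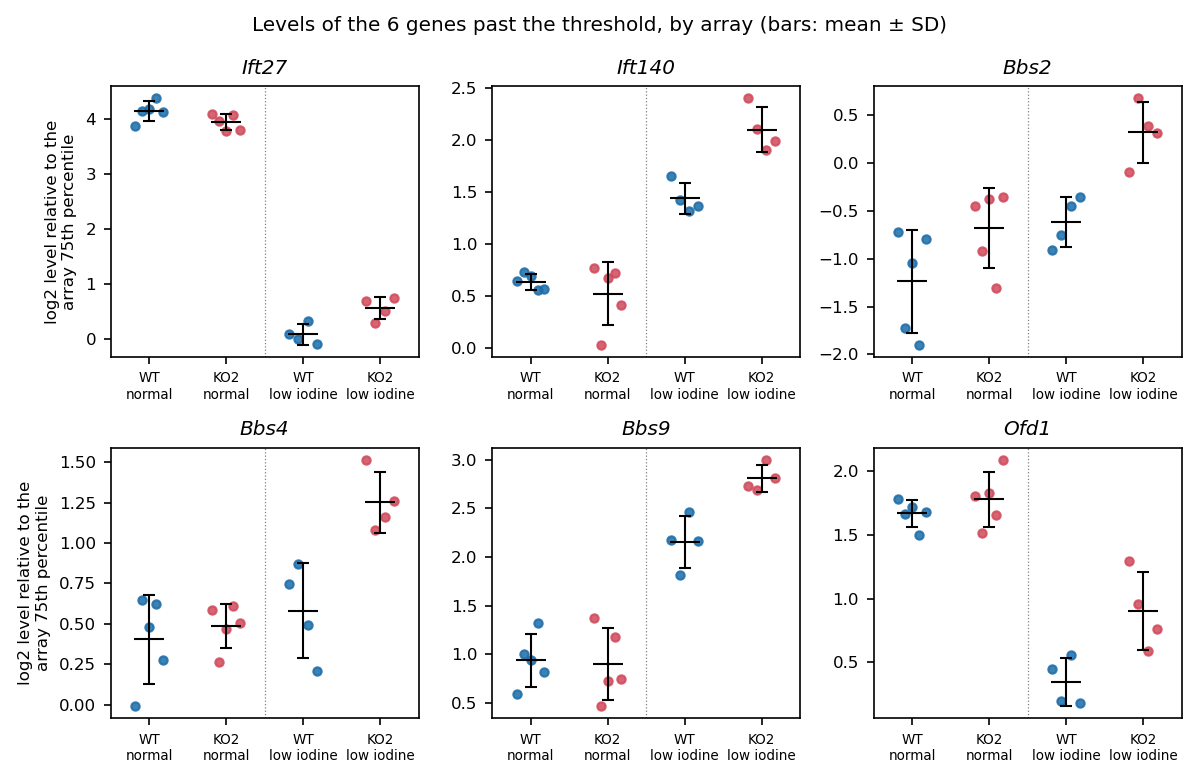
Levels of the 6 cilium genes past the threshold on each of the 18 arrays, in log2 relative to the array's 75th percentile; dots are arrays (blue WT, red KO2) and black bars mean ± SD, with 5 arrays a group on the normal diet and 4 on low iodine. On low iodine the KO2 dots lie above all WT dots for Ift140, Bbs2, Bbs4, Bbs9 and Ofd1, and overlap for Ift27; on the normal diet the genotypes overlap in all 6 panels.

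Of the 7 measured genes of the transition zone and cilium base, 1 was higher in KO2 on low iodine and 0 lower, and the median was −0.09. The gene was Ofd1, a protein of centrioles and satellites. It read 0.44, 0.19, 0.55 and 0.18 in WT and 1.30, 0.96, 0.59 and 0.76 in KO2. WT and KO2 arrays did not overlap, though KO2 replicate 3 and WT replicate 3 differed by little, and the difference was 0.56 ± 0.16 (SE, adjusted p = 0.0299), with 0.71 on slide 4 and 0.41 on slide 5. Levels on the normal diet were 1.78, 1.66, 1.72, 1.50 and 1.68 in WT and 1.80, 1.51, 1.83, 1.66 and 2.09 in KO2, with a difference of 0.11 ± 0.15 (adjusted p = 0.834).

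The gate proteins themselves gave small differences on low iodine. They were −0.17 ± 0.25 for Cep290, −0.14 ± 0.21 for Tmem67, −0.09 ± 0.22 for Tmem216, 0.06 ± 0.24 for Nphp4 and −0.00063 ± 0.22 for Rpgrip1l. The 95% interval of the Cep290 difference ran from −0.71 to 0.37. For Rpgrip1l, 3 dimmer probes read −0.59, −1.48 and −1.49 (adjusted p of 0.401, 0.0628 and 0.0732), and those with the larger differences were above background on 6 and 7 of 18 arrays. Invs, which names a compartment just above the transition zone, was the noisiest, with −0.95 ± 0.60 on low iodine (adjusted p = 0.346) and 0.65 ± 0.54 on the normal diet (adjusted p = 0.686).

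None of the 3 cystic kidney genes passed the test on either diet. Pkd1 and Pkd2 encode the polycystin receptor and channel of the cilium membrane. Pkd1 differed by 0.12 ± 0.21 on low iodine and Pkd2 by 0.02 ± 0.15, with 95% intervals of −0.32 to 0.57 and −0.31 to 0.34. Pkhd1 encodes fibrocystin, the protein lost in recessive polycystic kidney disease. It was not well above background on any normal-diet array. On low iodine it read −3.42, −1.43, −3.69 and −3.85 in WT and −3.50, −3.69, −3.69 and −3.23 in KO2. WT replicate 2 stood above all others, and without it the difference moved from −0.43 to 0.12 (adjusted p = 0.575 with it).

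None of the 4 trafficking genes was called on either diet. Tulp3, which works with IFT-A to bring receptors into the cilium, had the smallest p of them. It read −1.25, −1.60, −1.34 and −1.30 in WT and −2.13, −1.80, −1.60 and −1.57 in KO2 on low iodine, a difference of −0.40 ± 0.18 (SE, adjusted p = 0.142). Its normal-diet levels were −1.35, −0.62, −0.63, −0.83 and −1.06 in WT and −0.85, −0.48, −0.74, −0.83 and −0.72 in KO2, a difference of 0.18 ± 0.16 (adjusted p = 0.719). The groups overlapped on both diets. Arl13b, a GTPase of the cilium membrane, read 0.88, 0.62, 0.82 and 0.89 in WT and 1.59, 1.12, 0.87 and 1.10 in KO2 on low iodine, a difference of 0.37 ± 0.17 (adjusted p = 0.152). Arl6, the GTPase that recruits the BBSome, differed by 0.12 ± 0.17, and Arl3, which unloads lipid-tagged cargo, by 0.18 ± 0.17.

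Rfx3, the X-box factor, did not pass the test. Its levels on low iodine were −2.78, −2.65, −1.80 and −2.48 in WT and −1.31, −2.54, −2.59 and −1.77 in KO2, so KO2 held both the highest array and arrays within the WT range. The difference was 0.38 ± 0.30 (SE, adjusted p = 0.488). It was 1.18 on slide 4 and −0.43 on slide 5. Rfx3 on the normal diet read −5.07, −4.83, −4.80, −4.22 and −5.30 in WT and −4.19, −5.01, −4.86, −4.67 and −4.75 in KO2, a difference of 0.15 ± 0.27 (adjusted p = 0.89). It was not well above background on KO2 replicate 4 there. Its dimmer probes were above background on 11 and 10 arrays. They read 0.23 and 1.23 on the normal diet (adjusted p of 0.868 and 0.241) and 0.13 and −0.12 on low iodine (0.873 and 0.915).

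None of the 3 Hedgehog genes was called, though Smo came closest of the cilium genes on the normal diet. Smo encodes Smoothened, which enters the cilium when Hedgehog releases it from Patched. It read 3.72, 4.06, 3.72, 3.91 and 3.41 in WT and 2.98, 2.95, 2.72, 3.98 and 3.08 in KO2 on the normal diet. KO2 replicate 4 lay within the WT range and the other 4 KO2 arrays lay below every WT array. The difference was −0.62 ± 0.20 (SE, adjusted p = 0.147), and without KO2 replicate 4 it was −0.83 (adjusted p = 0.00397). On low iodine Smo read −1.65, −1.46, −1.89 and −1.88 in WT and −2.10, −2.31, −2.21 and −2.17 in KO2. The groups did not overlap, but the difference of −0.48 ± 0.22 had an adjusted p of 0.168. Within slides, KO2 minus WT was −0.76, −0.54 and −0.63 on slides 1 to 3 and −0.58 and −0.38 on slides 4 and 5. These values are from the brightest Smo probe. The other, dimmer Smo probe was above background on 16 arrays. It read −0.19 ± 0.49 on the normal diet (adjusted p = 0.937) and −0.17 ± 0.55 on low iodine (adjusted p = 0.884). The mean of both probes gave −0.41 on the normal diet (adjusted p = 0.661). Ptch1, the Hedgehog receptor, differed by −0.33 ± 0.35 and Sufu, the inhibitor of the Gli factors, by 0.11 ± 0.15 on low iodine.

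Whether the genotype difference itself changed with diet was tested as an interaction. None of the 37 cilium genes passed it (1.22% of all genes did), and 6 (16.2%) had an unadjusted p under 0.05, against 14.3% of all genes. The smallest adjusted p was that of Ift140, whose genotype difference was 0.78 ± 0.22 larger on low iodine (adjusted p = 0.096). For Ift27 it was 0.67 ± 0.20 larger (adjusted p = 0.112), for Bbs9 0.69 ± 0.27 (adjusted p = 0.253) and for Bbs4 0.59 ± 0.24 (adjusted p = 0.262). The genotype differences of the 6 genes are therefore not shown to differ between the diets.

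The calls on low iodine moved with the processing and with single arrays. With median scaling 2 cilium genes were called, Ift140 and Bbs4, and with the low-iodine arrays fitted alone 2, Ift140 and Bbs2. Without any scaling 2 were called, both lower in KO2 (Ift80 and Smo), and the median over all genes was then −0.29, against −0.02 as reported and 0.13 with median scaling. Leaving out a low-iodine array left 2 calls when it was WT replicate 2 or 4 or KO2 replicate 1, and 3 when it was WT replicate 1 or KO2 replicate 3 or 4. Ift140 passed in 28 of 30 alternatives, Bbs4 in 25, Ofd1 in 23, Bbs2 in 22, and Ift27 and Bbs9 in 18 each. Of the 30, 18 left out a single array. An array of the normal diet enters the low-iodine comparison only through the shared spread, so leaving it out tests these calls only weakly. The differences of these genes stayed positive in all 30. In several settings the difference could not change. These were the normal-diet arrays left out, the blocks, the low-iodine arrays fitted alone and the fit of every probe.

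**Figure D3:**
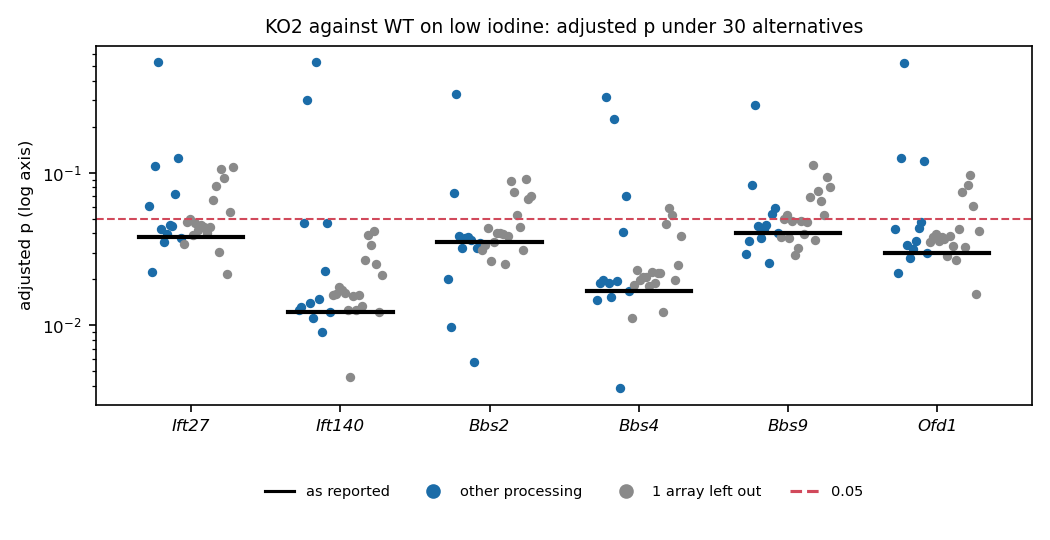
Adjusted p (log axis) of the KO2 against WT difference on low iodine for each of the 6 cilium genes called, as reported (black line) and under 30 alternatives (blue dots for other processing, grey dots for 1 array left out); the dashed red line is the threshold of 0.05. Dots above the line are calls lost: 2 for Ift140, 5 for Bbs4, 7 for Ofd1, 8 for Bbs2, and 12 each for Ift27 and Bbs9. The arrays left out include those of the normal diet, which enter this comparison only through the shared spread.

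Markers of several cell types moved with genotype on the same arrays. Over all genes, 7.81% were called higher and 7.18% lower in KO2 on low iodine, and 0.513% and 0.876% on the normal diet. These shares stand beside the marker counts here and in the next paragraph. The mean level of 5 dividing-cell markers ran from 0.92 to 1.45 over WT and −4.49 to −4.15 over KO2 arrays on low iodine, with all 5 called lower. No KO2 array there had Cdk1 well above background. Of 5 endothelial markers 3 were called lower (mean levels 1.98 to 2.28 in WT, 1.09 to 1.28 in KO2). Of 6 fibroblast markers 2, Col1a1 and Col3a1, were called lower and Dcn higher (means 1.31 to 1.85 in WT, −0.37 to 0.62 in KO2). Of 5 markers of the C cell, which makes calcitonin, 2 were called higher and 0 lower (means 1.11 to 1.45 in WT, 1.54 to 2.09 in KO2). Their directions were mixed, with 3 of the 5 differences positive and the lowest at −0.59. Follicular cell markers had 1 called higher and 1 lower of 7 (means 3.14 to 3.47 in WT, 2.69 to 3.33 in KO2). The part of these shifts in the differences of the cilium genes was not tested.

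The 5 dividing-cell markers were all called lower in KO2 on the normal diet too (means −2.99 to 0.32 in WT, −6.26 to −2.99 in KO2). So were 3 of 4 thymic epithelium markers (means −3.46 to 1.60 in WT, −4.59 to −1.15 in KO2), with 0 called on low iodine. Of 6 fibroblast markers 2 were lower on the normal diet, and of 7 follicular cell markers 2 were higher. Multiciliated airway cells share IFT and BBSome genes with primary cilia. On low iodine 3 of their 7 markers were lower in KO2 and 0 higher (means 0.05 to 0.25 in WT, −1.07 to −0.43 in KO2), and the median over the 7 was −0.06. Skeletal muscle markers varied widely between arrays of every group, from −4.75 to 5.79 in KO2 on the normal diet, with 0 of 5 called between genotypes on either diet.

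Other genes of the cilium were read from 9 lists holding 120 further genes, 112 of them measured. On low iodine 16 of the 112 were higher in KO2 and 9 lower, and on the normal diet 0 and 2. Of all genes, 7.81% were higher and 7.18% lower on low iodine, and 0.513% and 0.876% on the normal diet. Without adjustment, 32.1% of the 112 had p under 0.05 on low iodine, against 28.2% of all genes. These shares of all genes also stand beside the counts of each list below. The median difference on low iodine was 0.13 (−0.02 over all genes).

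Of 12 genes of the IFT motors, 3 were higher in KO2 and 0 lower on low iodine, all subunits of dynein-2, which drives IFT trains back to the cilium base. Dync2h1, its heavy chain, rose by 1.10 ± 0.25 (SE, limma adjusted p = 0.00675), Wdr34 by 0.74 ± 0.17 (adjusted p = 0.00815) and Wdr60 by 0.77 ± 0.20 (adjusted p = 0.0137). The other dynein genes of the list were not called. Dync2li1 differed by −0.33 ± 0.30 (adjusted p = 0.548), Dynlt1f by −0.36 ± 0.24 (adjusted p = 0.365) and Tctex1d2 by 0.28 ± 0.21 (adjusted p = 0.444). Of 11 further IFT genes, 1 was higher, the IFT-B gene Ttc30b (0.51 ± 0.16, adjusted p = 0.0385). Its probe may also read its close copy Ttc30a1. None of 5 further BBSome genes was called.

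Of 17 further transition zone genes, 3 were higher in KO2 on low iodine and 0 lower. They included Tmem237 (0.95 ± 0.16, adjusted p = 0.000838) and Iqcb1 (0.65 ± 0.20, adjusted p = 0.0355). Of 21 basal body and ciliogenesis genes, 2 were higher, Inpp5e, the lipid phosphatase of the cilium membrane (0.78 ± 0.21, adjusted p = 0.0211), and Ehd3 (0.88 ± 0.28, adjusted p = 0.0443). Of 8 cystic kidney genes, the kinase gene Nek8 was higher (1.03 ± 0.31, adjusted p = 0.0314).

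The cilium disassembly list went the other way, with 5 of 7 genes lower in KO2 on low iodine and 1 higher. Nek2 fell by 6.06 ± 0.75 (adjusted p = 6.21e-05), Plk1 by 2.74 ± 0.55 (adjusted p = 0.00334), Aurka by 2.46 ± 0.39 (adjusted p = 0.000523) and Nde1 by 0.85 ± 0.19 (adjusted p = 0.00748) on the log2 scale. Nek2, Plk1 and Aurka are also kinases of mitosis, and Nek2 and Plk1 were the 2 genes of the list lower on the normal diet as well, where the call of Nek2 (adjusted p = 0.0455) was lost with slide as a block (0.0744). Nedd9 was the fifth to fall, by 0.63 ± 0.20, and Hdac6, the deacetylase of cilium tubulin, rose by 0.79 ± 0.18.

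Among 12 Hedgehog ligands, co-receptors and targets, 3 were higher and 2 lower on low iodine. The co-receptor genes Boc (1.03 ± 0.19, adjusted p = 0.00176) and Cdon (0.63 ± 0.18, adjusted p = 0.0246) and the ligand-binding antagonist Hhip (1.86 ± 0.51, adjusted p = 0.02) were higher. Dhh, a Hedgehog ligand, fell by 2.55 ± 0.33 (adjusted p = 9.21e-05), and Gli3, a Hedgehog transcription factor, by 1.01 ± 0.31. Dhh also passed the interaction test, its genotype difference being −0.05 ± 0.29 on the normal diet (adjusted p for the interaction 0.0111).

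Of 19 motile cilium genes, 2 were higher and 2 lower on low iodine. Rsph9, a radial spoke protein, rose by 1.26 ± 0.21 (adjusted p = 0.00087) and Rfx1, an X-box factor, by 0.64 ± 0.19 (adjusted p = 0.0339). Dnah5, a dynein arm heavy chain, fell by 3.25 ± 0.52 (adjusted p = 0.000521) and Foxj1, the master factor of motile cilia, by 2.07 ± 0.40 (adjusted p = 0.00263). Foxj1 and Dnah5 are also on the list of multiciliated airway markers.

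Between diets nearly every cilium gene differed, as did most genes of the array. In WT 35 of 37 passed the test, 18 higher and 17 lower on low iodine (75.9% of all genes passed, 39.4% higher and 36.5% lower), and in KO2 34 of 37, 18 higher and 16 lower (74.4% of all genes, 37.5% higher and 36.9% lower). In these contrasts diet goes with array set, scanner and slide. The low-iodine minus normal-diet difference in WT was −5.48 for Smo, −4.24 for Ift172 and −4.05 for Ift27, and 4.06 for Rpgrip1l and 3.49 for Ift80. By group means, Pkhd1 was at least 8.82-fold higher in WT and at least 4.27-fold higher in KO2, against the lowest signal that counts as well above background. The WT value leans on low-iodine replicate 2, at −1.43 against −3.42, −3.69 and −3.85 in the others. Only Bbs4 and Arl6 did not pass in WT, at 0.18 and 0.18.

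Probes of the same gene often disagreed on the diet difference. Of the 19 cilium genes with several probes, 3 had probes past the threshold in opposite directions in WT (15.8%, against 24.1% of all genes with several probes) and 6 in KO2 (31.6%, against 25.1%). Ift81 rose by 1.35 by its brightest probe and fell by 1.40 by the other in WT. Arl13b read 0.99, −1.87 and −0.42 by its 3 probes, and Ift52 −1.93 and 0.59. In KO2 the same held for Bbs4 (0.77 and −1.32), Ift57 (−0.92, 0.62 and 0.31) and Ift172 (−4.14, −0.96 and 1.25). Smo, at −5.48 by its brightest probe in WT, read −0.95 by its other probe.

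The brightest Ift81 probe read −0.02, −0.15, 0.10, 0.51 and 0.11 in WT on the normal diet and 1.63, 1.29, 1.34 and 1.56 on low iodine. The brightest Ift52 probe read 2.11, 1.61, 1.66, 1.68 and 1.86 and −0.24, −0.33, −0.08 and 0.05, and that of Ift57 1.68, 1.95, 2.03, 1.98 and 1.63 and 0.60, 0.40, 0.72 and 0.40. For each of these genes the arrays of the diets did not overlap. For Ift172 the WT levels were 1.53, 1.18, 1.23, 1.32 and 1.34 on the normal diet and −2.82, −2.48, −3.03 and −3.33 on low iodine, and for Arl13b −0.20, −0.12, −0.43, 0.11 and −0.33 and 0.88, 0.62, 0.82 and 0.89. Between genotypes on the same diet, none of the 19 genes had probes past the threshold in opposite directions.

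**Figure D4:**
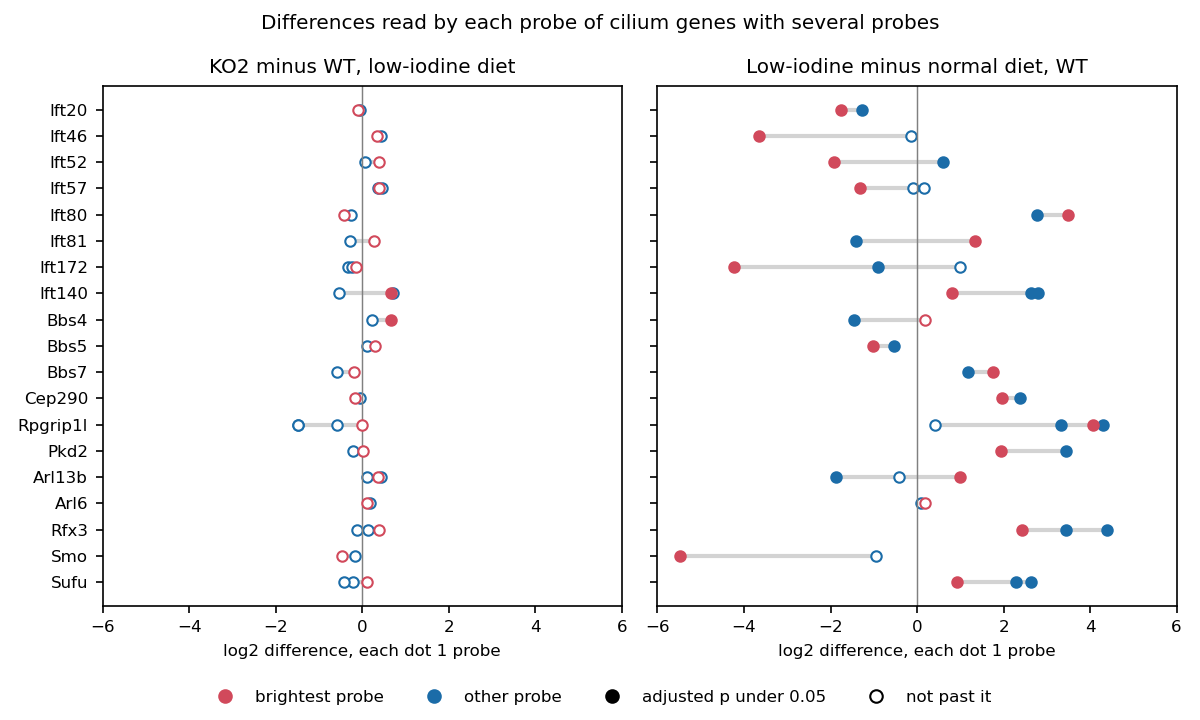
Log2 differences read by each probe of the 19 cilium genes with several probes, for KO2 minus WT on low iodine (left) and low-iodine minus normal diet in WT (right); red dots are the brightest probes, blue dots the others, filled dots passed an adjusted p of 0.05 in a fit of all probes, and grey lines join probes of a gene. On the left no gene has filled dots on both sides of 0, while on the right those of Ift81, Arl13b and Ift52 lie on both sides of 0 and past the threshold.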

How the data were processed

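The 37 measured cilium genes were read on 18 arrays. Agilent Feature Extraction (version 12) read the scans, per the submitters' processing notes. Per the file headers, the deposited intensity of a spot is linear and already background-subtracted (the processed signal). The deposited summary table holds the same intensity. From it, log2 minus the array's 75th percentile was taken, without control and outlier-flagged spots. Spots of a probe were averaged. Probes were matched by accession to GRCm38.p6 RefSeq genes (28223 of 41174 to 1 gene, 12951 to none). Those well above background on at least 4 of 18 arrays were kept, and the brightest stood for a gene. One limma model (3.58.1, R 4.3.3) of 4 group means gave contrasts adjusted over 17928 genes, and it was tested on simulated data. P-values measure the spread between these samples. The number of arrays limits the precision.

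The genes and lists were chosen with earlier results of these data known. Values per array are given for genes past the threshold, the smallest p in each other role group, and genes whose probes disagree. From the other lists, up to 4 genes with the smallest p are named. Nedd9, Hdac6, Gli3, Dync2li1, Dynlt1f, Tctex1d2 and the markers were named after their values were seen. Some listed symbols were looked up under their GRCm38.p6 names (Wdr60, Wdr34). A result for a single gene is not reported here. The alternatives were other background correction, scaling, filters, probe rules, blocks and arrays left out. The normexp alternative used the median signal, since the mean signal is not among the columns.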

Additional observations from a re-analysis of the deposited data

Results flagged for a closer look

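Groups of arrays were checked for each named gene and for the median level of the cilium genes, 64 in all. In 2 of these groups an array lay far from the others. Chance alone gives about 1 such group in 20. Smo in KO2 replicate 4 on the normal diet read 3.98, against 2.72 to 3.08 in the other 4 KO2 arrays. Its gap to the nearest array was 0.714 of the group's range. This array had the smallest share of spots well above background in the series (60.1%). Ift57 in KO2 replicate 2 on low iodine read 0.618, against 0.996 to 1.04 in the other 3, a gap of 0.896 of the range.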

How the results depend on the processing

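For KO2 against WT on low iodine, the count of cilium genes called was 6 as reported, 2 with median scaling, 2 without scaling (0 higher, 2 lower), 2 with the arrays of that diet alone, and 2 to 7 when single arrays were left out. The median difference of the cilium genes was 0.267 with median scaling (0.126 over all genes) and −0.144 without scaling (−0.285 over all genes). On the normal diet the count was 0 in 29 of 30 alternatives and 0 to 1 when single arrays were left out (1, Smo, without KO2 replicate 4), and the median was −0.152 without scaling. Reversed signs were seen for Ift81 on low iodine with the mean of its probes (−0.0129) and for Pkhd1 without WT replicate 2 (0.123, within a range of −0.682 to 0.123 over the arrays left out). The causes were not tested. The interaction count was 0 in all 29 alternatives. Diet counts ran from 29 to 35 in WT and 29 to 36 in KO2. Over all genes the normal-diet count was 249, and 3 with that diet's arrays alone. Of all low-iodine calls, 1400 were higher and 1287 lower as reported, 255 and 1637 without scaling, and 708 and 965 with that diet alone. Of the normal-diet calls, 92 were higher and 157 lower as reported, 54 and 147 with median scaling, and 28 and 269 without scaling.

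WT and KO2 share replicate numbers, but same-numbered arrays deviated together with correlations of −0.0379 to 0.323 on the normal diet and 0.0346 to 0.132 on low iodine. The same-numbered KO2 array was the closest match for WT replicates 1, 2 and 4 on low iodine, and for replicate 5 on the normal diet. Not every value was over 0.1, so the numbers were not taken as pairs. With the replicate block, 4 cilium genes were called on low iodine and 0 on the normal diet. The calls lost were Ift27 (adjusted p = 0.0729) and Bbs9 (0.0537). The diet contrasts could not be fitted with this block or with slide as a block, since both lie within diet. Slide as a block left 6 calls on low iodine, the same genes.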
